A study of Homo sapiens with 84 samples.

Results

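The genes described here are 47 human genes whose products carry a cell through mitosis, other than the mitotic kinesins as a family. They comprise cyclin B and its kinase, the polo and Aurora kinases, the spindle assembly checkpoint, the kinetochore, the spindle assembly factors, the cytokinesis apparatus and the chromosome proteins that accompany them. The members were a fixed list of symbols, and each was found by its Ensembl gene identifier in the count files. All 47 of 47 were found among the 58395 genes of the files. One member, CENPE, is itself a motor of the kinesin superfamily and is kept with the kinetochore genes.

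Entry into mitosis is driven by cyclin B bound to the kinase CDK1. The polo kinase PLK1 and the Aurora kinases then act on centrosomes, spindle and kinetochores. The spindle assembly checkpoint holds the anaphase-promoting complex inactive until each kinetochore is attached, after which CDC20 activates the complex, securin and cyclin B are destroyed and the cell divides. Most of these genes are transcribed late in the cycle, in G2 phase and mitosis. Many of their promoters carry a short cell cycle genes homology region (CHR), which is bound by the MuvB complex, either in the repressive DREAM complex of resting cells or together with B-Myb and FOXM1 in cycling cells. Many also carry CCAAT boxes, which are bound by NF-Y. Messenger RNA of these genes is therefore widely used as a measure of proliferation.

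RNA was measured by 3′ RNA-seq (QuantSeq 3′ FWD), which reads 1 tag near the end of each transcript, so that counts do not scale with gene length. The cells were Kyse30, a line of esophageal squamous cell carcinoma, and FaDu, a line of hypopharyngeal carcinoma. All cells, controls included, were starved of serum for a day before treatment and were kept without serum throughout. Cells were left untreated for 0, 6 or 72 h, or were treated for 6 or 72 h with the immunoglobulin Fc region alone, with EpEX, with EGFlow, with EGFhigh or with EGFhigh and EpEX together. EGFlow was 1.8 nM and EGFhigh 9 nM epidermal growth factor, the ligand of the receptor EGFR. EpEX is the extracellular domain of the adhesion protein EpCAM, and it was given as a fusion with Fc. Untreated cells were therefore the controls of EGF, and Fc-treated cells those of EpEX and of the combination.

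The Kyse30 groups held 3 or 4 libraries each, 43 in all. The total of counts assigned to genes ranged from 1944948 to 11759799 per Kyse30 library. Of the FaDu libraries, the 20 labelled replicate 3 or 4 were used, with 1 or 2 per group and totals of 6217938 to 12442349. The 21 FaDu libraries labelled replicate 1 or 2 stood apart: their rank correlation with replicates 3 and 4 had a median of 0.843, against 0.931 among replicates 3 and 4. Among replicates 1 and 2 the median was 0.857, and between replicates 3 and 4 and the Kyse30 libraries it was 0.867. The labels give no reason for this. FaDu results are given without replicates 1 and 2, and the counts with them are stated. Levels are given as CPM (counts scaled to a common library total), and no member had 0 counts in any library used. Of the 14 fibroblast, endothelial and blood markers, the summed level was 11.7 to 46.6 CPM in Kyse30 and 7.37 to 23.2 CPM in FaDu, with COL1A1 the highest, and HBB was at 0 in all these libraries. The epithelial label was met by EPCAM, which ranged from 113 to 312 CPM in Kyse30 and from 279 to 450 CPM in FaDu, whereas the keratin genes KRT5 and KRT14 had medians of 2.10 and 0.69 CPM in Kyse30. In bulk RNA, fewer dividing cells and less messenger RNA per dividing cell cannot be told apart.

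Promoter sequences of 5 members are shown because the CHR is the element these genes are known to share, and because the 5 genes stand for cyclin B, a mitotic kinase, the anaphase-promoting complex, the kinetochore and the chromosome surface. Each is the stretch of 150 bases that ends immediately before a RefSeq transcription start (GRCh38.p14), 5′ to 3′ on the strand of the gene. Capitals mark TTTGAA and TTTAAA, the usual forms of the CHR, and CCAAT, which reads ATTGG when it lies on the opposite strand. In MKI67 a TTTGAA and an ATTGG overlap.
CCNB1 (chr5:69167000-69167149, plus strand): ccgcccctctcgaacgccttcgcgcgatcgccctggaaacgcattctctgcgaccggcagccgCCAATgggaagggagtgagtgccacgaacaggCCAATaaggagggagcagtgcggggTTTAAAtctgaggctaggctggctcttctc
PLK1 (chr16:23678739-23678888, plus strand): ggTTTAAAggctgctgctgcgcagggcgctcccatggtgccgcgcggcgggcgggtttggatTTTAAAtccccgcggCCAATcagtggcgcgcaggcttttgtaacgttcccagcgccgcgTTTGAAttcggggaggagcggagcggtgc
CDC20 (chr1:43358831-43358980, plus strand): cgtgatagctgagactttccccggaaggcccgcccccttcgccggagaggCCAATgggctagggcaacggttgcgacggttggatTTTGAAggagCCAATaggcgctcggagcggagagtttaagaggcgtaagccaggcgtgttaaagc
CENPF (chr1:214603045-214603194, plus strand): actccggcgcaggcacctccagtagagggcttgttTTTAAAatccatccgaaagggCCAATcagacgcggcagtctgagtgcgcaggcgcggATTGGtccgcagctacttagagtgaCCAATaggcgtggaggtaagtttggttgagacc
MKI67 (chr10:128126424-128126573, minus strand): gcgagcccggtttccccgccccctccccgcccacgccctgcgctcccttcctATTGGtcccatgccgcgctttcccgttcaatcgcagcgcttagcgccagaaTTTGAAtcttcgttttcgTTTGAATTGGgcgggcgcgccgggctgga

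In PLK1 and MKI67 a TTTGAA began 29 bases before the start, and in CCNB1 a TTTAAA began 30 bases before it, with CCAAT boxes 55 and 87 bases before the start. In CDC20 the TTTGAA lay 65 bases before the start, between CCAAT boxes at 100 and 55 bases. CENPF had a TTTAAA 115 bases before the start and CCAAT boxes on either strand at 94, 58 and 33 bases. These are matches of letters, not sites shown to be bound.

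Windows from 250 bases before to 50 after the start were given for 38 of the 47 genes, 49 windows in all, and both strands were searched. TTTGAA was found in 30 of the 49 windows (61.2%), against 15.2% of 35116 windows of all genes. TTTAAA was found in 28.6% against 12.2%, CCAAT in 73.5% against 34.6%, and either form of the CHR in 75.5% against 24.0%. Of the 43 TTTGAA matches in member windows, 21 began 40 to 1 bases before the start (48.8%), against 12.04% of those in all windows. The peak was at -30 to -21, where ANLN, BUB1B, CCNB2, CDC25C, CDCA8, CKS1B, CKS2, DEPDC1, GTSE1, HMMR, MKI67 and PLK1 each had a match. The 40-base limit was chosen after the positions were seen, and starts of a gene can share sequence. For comparison, either form of the CHR was present in 84.6% of 13 windows of mitotic kinesins, in 46.97% of 66 windows of other mitosis genes and in 7.69% of 39 windows of DNA replication genes.

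**Figure D1:**
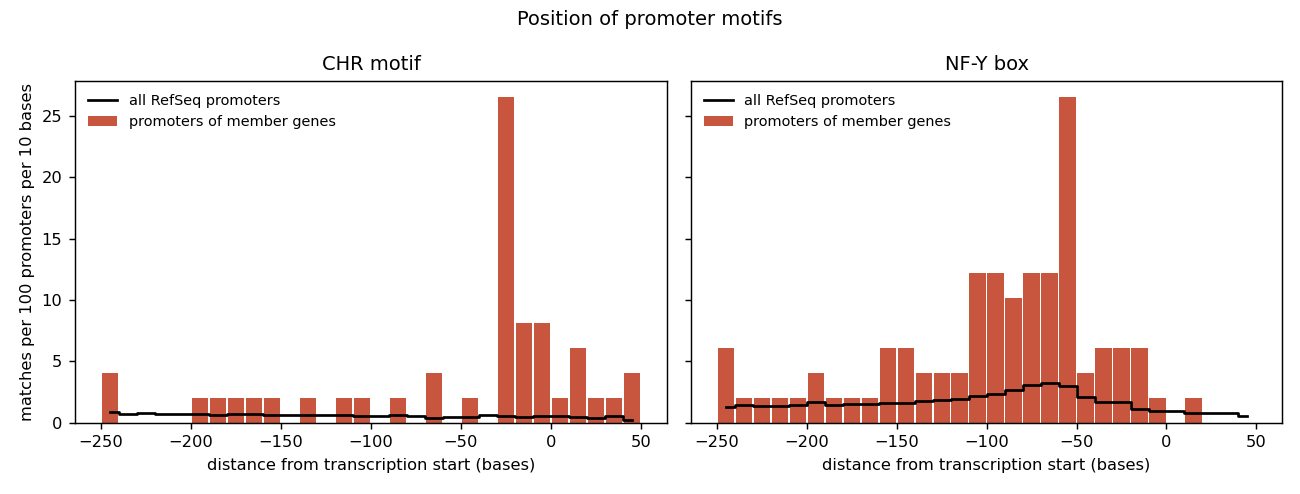
Matches per 100 promoter windows in steps of 10 bases, against distance from the transcription start in bases, for TTTGAA (left) and CCAAT (right). Bars are the 49 windows of member genes and the black line is all 35116 windows; TTTGAA of the members peaks just before the start and CCAAT further upstream.

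The summed level of the 47 genes showed the course of the experiment in each library. In Kyse30 it was 8581, 8452 and 6460 CPM in the untreated libraries at 0 h, 5220, 6783 and 4824 CPM at 6 h, and 2932, 3618 and 2660 CPM at 72 h. The ranges at 0 h and 6 h overlapped, and the libraries at 72 h lay below both. After 72 h of EGFhigh it was 1758, 1150 and 1239 CPM, below each of the other 40 Kyse30 libraries. With EGFhigh and EpEX together for 72 h it was 2005, 3026 and 2610 CPM, against 3007, 3216 and 3659 CPM with Fc, its control. Only replicate 2 of the combination, at 3026 CPM, lay within the Fc range or the untreated range, and the others lay below both. The 4 EGFlow libraries at 72 h ranged from 1817 to 3504 CPM, and the 3 EpEX libraries from 2632 to 3800 CPM, both overlapping their controls.

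**Figure D2:**
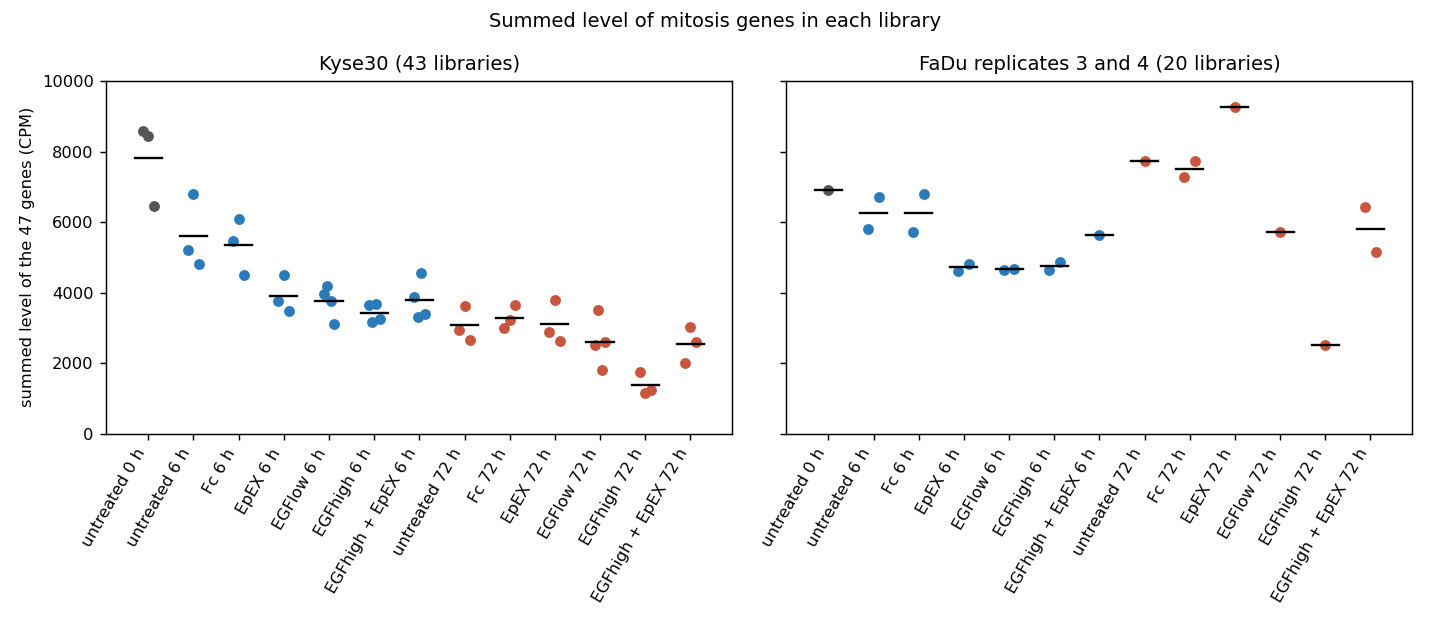
Summed CPM of the 47 genes (vertical axis) in each library by treatment and time, for Kyse30 (left) and FaDu replicates 3 and 4 (right). Each point is 1 library and the bar is the group mean; the Kyse30 libraries after 72 h of EGFhigh, 1150 to 1758 CPM, lie below the other Kyse30 libraries.

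Among the comparisons of a treatment with its control, EGFhigh in Kyse30 at 72 h had the most mitosis genes called. A gene was said to rise or fall when edgeR's quasi-likelihood test, adjusted over all genes by Benjamini-Hochberg, gave at most 0.05 and the log2 fold change (log2FC) was beyond 0.5 in size. Of the 47 genes, 32 fell and 0 rose, while 6.20% of the 15350 genes tested were called in either direction, 3.16% lower and 3.04% higher. The log2FC was below 0 for 47 of 47 members, with a median of -1.21 against -0.03 over all genes tested. Without untreated replicate 2 or without EGFhigh replicate 3 the number that fell was 17, without EGFhigh replicate 4 it was 21, and in a fit of these 6 libraries alone it was 12. Libraries after EGFhigh had 11.7 to 12.9% of counts from mitochondrial genes, against 8.86 to 12.4% in untreated libraries. The 14 fibroblast, endothelial and blood markers summed to 25.1 to 32.6 CPM after EGFhigh and 17.3 to 21.5 CPM untreated, and 9 epithelial markers, EGFR among them, to 4207 to 4613 and 4680 to 5717 CPM. The ranges of both marker lists did not overlap, and the part of these values in the result was not tested.

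Cyclin and CDK1 genes fell in 5 of 8 cases. CDK1, the kinase of mitotic entry, stood at 53.3, 62.1 and 51.1 CPM in untreated libraries at 72 h and at 24.5, 13.2 and 17.0 CPM after EGFhigh. CCNB1, cyclin B1, stood at 53.3, 46.7 and 30.8 CPM and then at 22.3, 15 and 17.2 CPM. The groups did not overlap for either gene. CDK1 fell by 1.60 on the log2 scale (standard error 0.29, edgeR adjusted p = 0.000272) and CCNB1 by 1.26 (0.26, 0.00164). CCNA2, cyclin A2, which acts from S phase to early mitosis, fell by 1.82 (0.39, 0.00222). CCNB2, cyclin B2, and CKS1B, a small CDK-binding subunit, fell as well. The phosphatases CDC25B and CDC25C, which activate CDK1, and the second CDK-binding subunit CKS2 did not pass the test. CDC25B was at 42.4, 55.3 and 49.2 CPM untreated and at 20.7, 31.7 and 39.3 CPM after EGFhigh. CDC25C was at 22.3, 21.9 and 26.8 CPM untreated, with 1 EGFhigh library, at 22.5 CPM, within that range and the others at 8.55 and 8.84 CPM. CKS2 was at 54.2, 67.4 and 34.5 CPM and then at 34.7, 29.2 and 22.2 CPM.

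Of the kinases PLK1, NEK2 and AURKA, grouped here apart from CDK1 and the checkpoint and passenger kinases, PLK1 and NEK2 fell and AURKA did not pass. PLK1 was at 50.3, 49.0 and 46.6 CPM in untreated libraries and at 31.9, 18.3 and 19.4 CPM after EGFhigh, a fall of 1.06 on the log2 scale (standard error 0.32, edgeR adjusted p = 0.0364). NEK2, a centrosome kinase, had one of the larger changes, with a mean of 32.2 ± 13.4 CPM (SD, n = 3) untreated and 9.00 ± 1.71 CPM (n = 3) treated. AURKA, the Aurora kinase of spindle poles, was at 28.6, 35.6 and 33.9 CPM and then at 17.6, 22.3 and 23.8 CPM. Its groups did not overlap, but the adjusted p was 0.254 (edgeR), with a log2FC of -0.62 ± 0.31 (standard error).

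In the chromosomal passenger complex, which corrects faulty attachments at centromeres and later acts in cytokinesis, the members differed. BIRC5 (survivin) and CDCA8 (borealin) fell, by 1.31 and 1.22 on the log2 scale. The kinase of the complex, AURKB, was at 49.5, 71.6 and 45.8 CPM untreated and at 62.1, 34 and 21.1 CPM after EGFhigh. The scaffold INCENP was at 13.7, 28.6 and 19.4 CPM and then at 28.8, 14.1 and 12.7 CPM. Both overlapped between groups and neither passed (edgeR adjusted p = 0.33 and 0.918). The sign of the INCENP difference was not settled, since it turned positive in 4 of the alternative fits.

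Spindle checkpoint genes fell in 3 of 5 cases. BUB1B, which encodes the checkpoint protein BubR1, was at 12.2, 13.3 and 13.9 CPM untreated and at 1.98, 4.45 and 4.13 CPM after EGFhigh, a fall of 1.91 (standard error 0.40, edgeR adjusted p = 0.00181). MAD2L1, the checkpoint protein that binds CDC20, was at 13.8, 12.8 and 14.1 CPM and then at 8.27, 4.81 and 6.13 CPM. TTK, the upstream checkpoint kinase also known as MPS1, fell by 1.48. BUB1, a kinetochore kinase, missed the threshold narrowly, at an edgeR adjusted p of 0.0502, with 13.4, 17.9 and 10.4 CPM against 6.29, 5.52 and 6.56 CPM. BUB3, the partner of BUB1 and BubR1, did not pass and overlapped, at 173, 195 and 165 CPM untreated and 201, 105 and 123 CPM after EGFhigh.

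**Figure D3:**
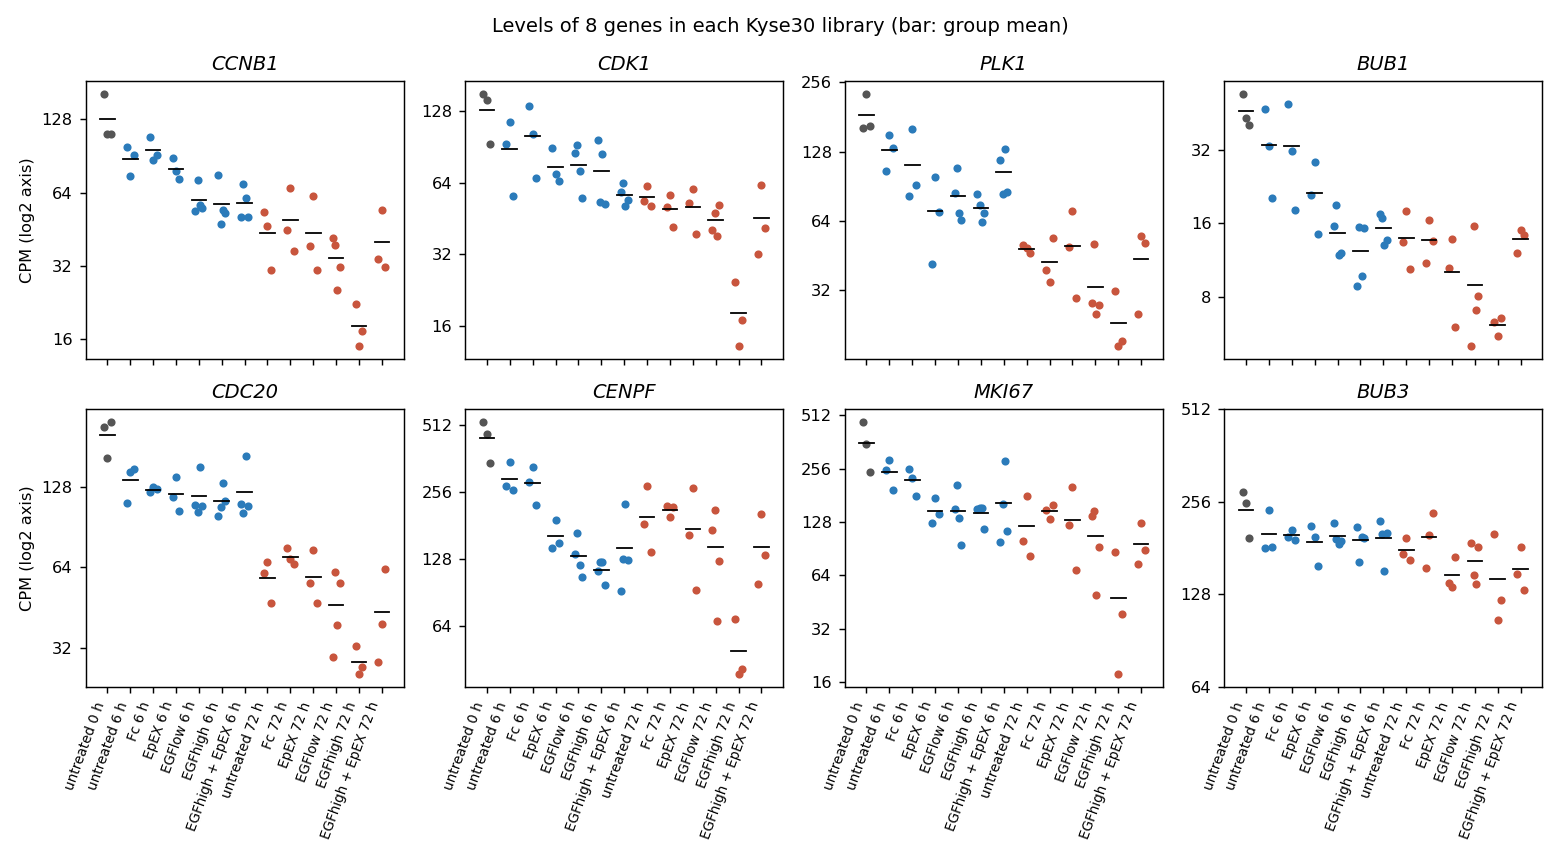
CPM on a log2 axis for 8 member genes in each of the 43 Kyse30 libraries, by treatment and time. Points are libraries and bars are group means. Each of the 8 genes has its lowest mean after 72 h of EGFhigh. For MKI67 and BUB3 the range of the EGFhigh libraries at 72 h overlaps that of untreated cells at 72 h.

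At the metaphase to anaphase transition, CDC20, the activator of the anaphase-promoting complex, and PTTG1 (securin), which restrains separase, both fell. CDC20 was at 60.8, 67.1 and 47.2 CPM untreated and at 32.6, 25.5 and 27.1 CPM after EGFhigh, a fall of 1.04 (standard error 0.25, edgeR adjusted p = 0.00659). UBE2C, the ubiquitin-conjugating enzyme of the same complex, was at 50, 43.6 and 44.5 CPM and then at 33.2, 23.5 and 24.2 CPM, with an adjusted p of 0.0974 (edgeR). UBE2C has 4 named pseudogenes and CKS1B has 6, and reads shared with them may have been counted elsewhere or dropped.

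Among the 6 centromere and kinetochore genes, CENPF, NDC80 and NUF2 fell. CENPF, a large protein of the outer kinetochore and nuclear envelope, was at 184, 273 and 138 CPM untreated and at 68.8, 38.8 and 40.9 CPM after EGFhigh. Its fall of 2.0 on the log2 scale (standard error 0.34) had the lowest edgeR adjusted p of the members, 0.000125. NDC80, which binds microtubules at the kinetochore, was at 34.4, 44.6 and 44.1 CPM and then at 27.9, 10.7 and 10.1 CPM. Its partner NUF2 fell by 1.14. CENPE, at 30.7, 32.8 and 22.5 CPM and then 22.7, 9.80 and 12.3 CPM, and SPC25, at 10.0, 15.1 and 11.4 CPM and then 11.8, 6.06 and 4.70 CPM, did not pass. CENPA, the centromeric histone H3, did not pass and overlapped between the groups, at 0.35, 7.30 and 2.0 CPM after EGFhigh against 4.46, 6.48 and 3.27 CPM untreated. The lowest of these values rested on 3 counts and the highest EGFhigh value on 41.

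Of the 8 spindle assembly genes 6 fell, and the largest change among the members was here. DLGAP5, a kinetochore fibre protein, was at 24.1, 21.7 and 18.8 CPM untreated and at 3.61, 0.712 and 8.70 CPM after EGFhigh, a fall of 2.29 (standard error 0.42, edgeR adjusted p = 0.000326). GTSE1 fell by 1.89, although its untreated libraries ranged from 7.35 to 25.0 CPM. In EGFhigh replicate 3 the values of DLGAP5 and GTSE1 rested on 4 counts each. TPX2, the activator of AURKA, was at 128, 184 and 112 CPM and then at 87.3, 49.5 and 40.2 CPM. HMMR, NUSAP1 and TACC3, which act on spindle microtubules, fell by 1.33, 0.94 and 1.21. CKAP2, at 23.7, 18.9 and 31.5 CPM and then 18.2, 23.3 and 10.7 CPM, overlapped, and CKAP2L, at 13.2, 26.1 and 16.7 CPM and then 12.9, 7.30 and 11.8 CPM, did not, but neither passed.

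For cytokinesis, the contractile ring protein ANLN and RACGAP1, a subunit of centralspindlin, fell by 1.35 and 1.07. ECT2, the exchange factor that activates RhoA at the cleavage site, was at 33.9, 40.6 and 38.4 CPM untreated and at 26.5, 38.1 and 31.2 CPM after EGFhigh. These values overlapped, and the log2FC of -0.24 ± 0.30 (standard error) did not pass (edgeR adjusted p = 0.728).

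The chromosome and nuclear envelope genes fell in 4 of 4 cases. TOP2A, topoisomerase II alpha, which disentangles chromosomes, was at 565, 773 and 480 CPM untreated and at 289, 150 and 199 CPM after EGFhigh. MKI67, which encodes the proliferation marker Ki-67 of the chromosome surface, was at 100, 180 and 82.7 CPM and then at 86.8, 17.6 and 38.9 CPM. The groups overlapped for MKI67 through EGFhigh replicate 1, and it passed at an adjusted p of 0.0377 (edgeR). HMGB2, a chromatin protein, fell by 1.84, and LMNB1, the lamin of the nuclear lamina, by 1.90. FOXM1, a transcription factor of G2 and M phase genes, was at 23.7, 26.7 and 26.1 CPM and then at 17.6, 8.01 and 6.13 CPM, a fall of 1.25 (standard error 0.31, edgeR adjusted p = 0.00842). FOXM1 overlaps RHNO1 and ITFG2 on the opposite strand, and whether the counting used strand was not stated. Other members also overlap coding genes on the opposite strand, among them CCNA2, CDC25C, NUF2, ANLN, RACGAP1 and CDCA3. BUB1B, NUSAP1 and CENPA overlap coding genes on the same strand. CDCA3 and DEPDC1 fell as well, by 1.65 and 1.24.

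**Figure D4:**
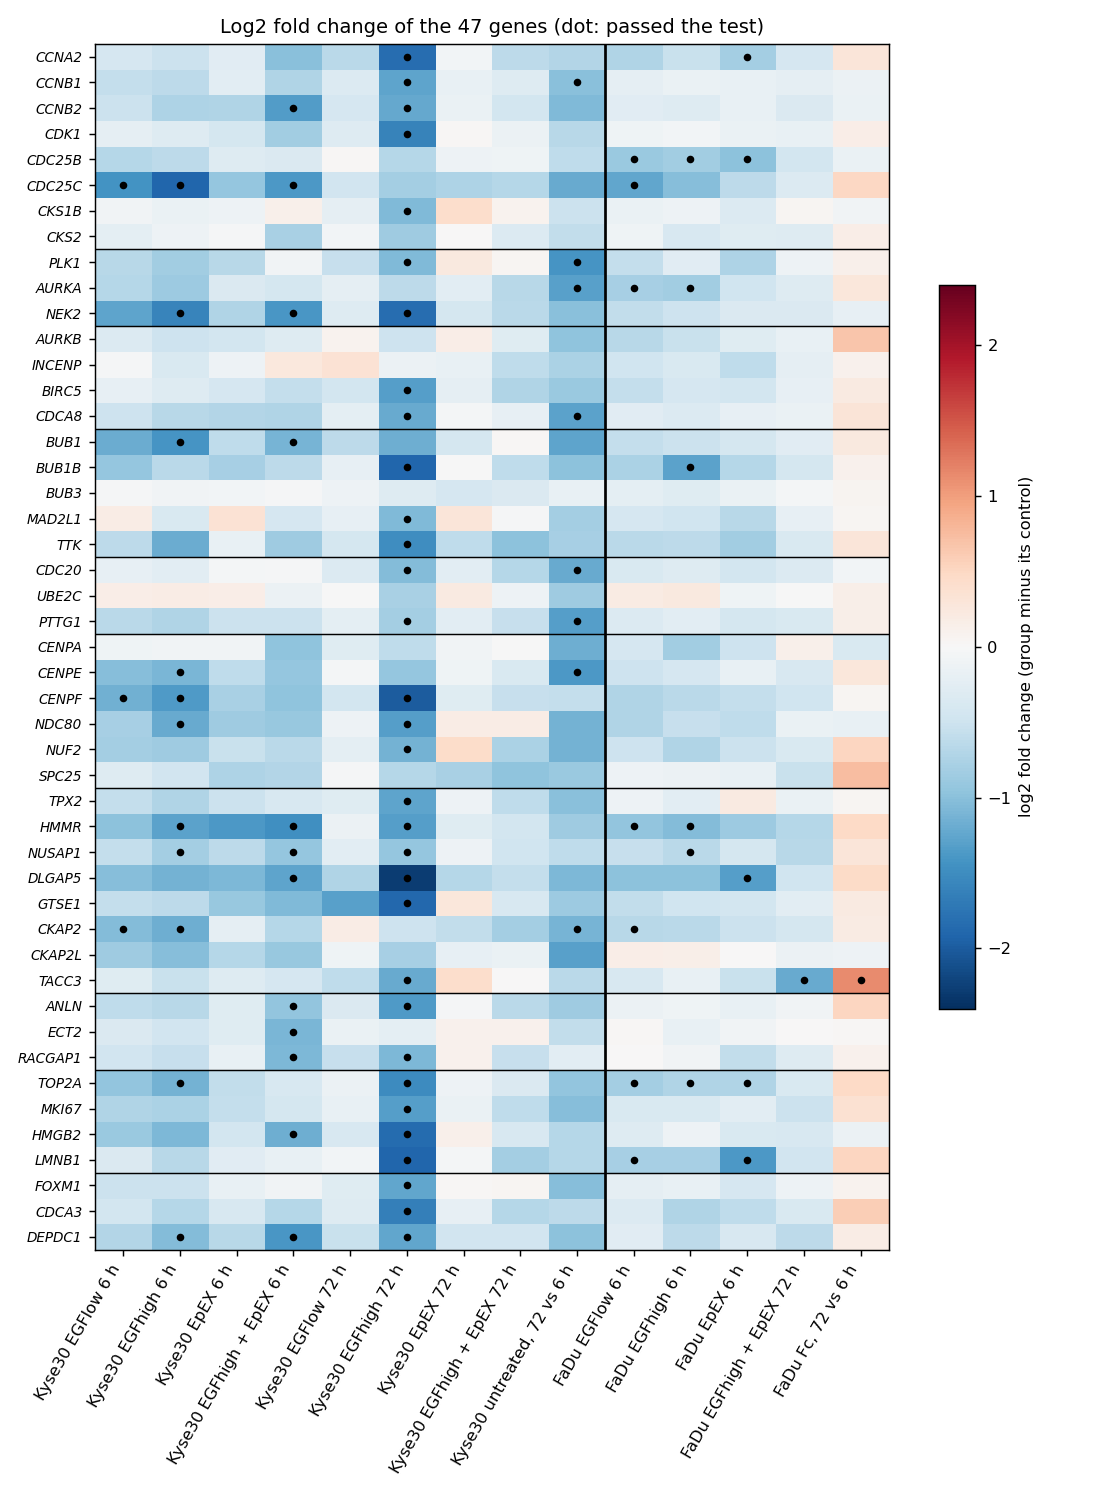
Log2 fold change of the 47 genes (rows, grouped by role) in 14 comparisons (columns), blue for lower than the control and red for higher, with a dot where a gene passed the test. EGF was compared with untreated cells, EpEX and the combination with Fc; the column of Kyse30 EGFhigh at 72 h holds 32 dots.

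Other genes of the same processes moved in the same direction at 72 h of EGFhigh. Of 69 further mitosis genes 21 fell and 0 rose, of 12 mitotic kinesins 7 fell, and of 37 DNA replication genes 13 fell. Over all 15350 genes tested, 3.16% fell and 3.04% rose. The median log2FC values of these lists were -0.95, -1.44 and -0.96, against -0.03 over all genes tested. Among 11 genes of the MuvB and B-Myb machinery 3 fell, the lowest being MYBL2, which encodes B-Myb, at -1.60 (standard error 0.37, edgeR adjusted p = 0.00498).

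The mitosis genes differed between the doses of EGF at 72 h. EGFlow against untreated cells changed 0 of the 47 genes, as it did 0 of the 15350 genes tested by edgeR (0%), although 3 members and 439 genes had an unadjusted p under 0.05. The median log2FC of the members was -0.25. In the direct comparison of EGFhigh with EGFlow, 14 members were lower after EGFhigh and 0 higher, against 3.73% of all genes called, 1.71% lower and 2.03% higher. The 14 were CCNB1, CDK1, NEK2, BIRC5, CDCA8, BUB1B, CENPF, TPX2, DLGAP5, ANLN, TOP2A, HMGB2, LMNB1 and CDCA3. CDK1 was at 40.7, 47.8, 38.3 and 51.4 CPM after EGFlow, each above the EGFhigh libraries, a difference of -1.29 (standard error 0.27, edgeR adjusted p = 0.00285). LMNB1 had the largest difference, -1.83 (0.34, 0.000687). Without EGFlow replicate 2 or EGFhigh replicate 3 the number was 5, without EGFhigh replicate 4 it was 9, and in a fit of these 7 libraries alone it was 2.

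EpEX alone did not change the mitosis genes at 72 h by the test. Against Fc, 0 of 47 members and 0 of 15350 genes (0%) passed in edgeR, and 3 members and 554 genes had an unadjusted p under 0.05. The members' log2FC ranged from -0.77 for SPC25 to 0.43 for NUF2, with a median of -0.12. The combination against EGFhigh alone gave 12 members higher and 0 lower, against 3.58% of all genes called, 1.72% lower and 1.86% higher, and 47 of 47 log2FC values were above 0, with a median of 0.89. The EGFhigh libraries are the same ones as in the comparison with untreated cells, so the opposite signs are not independent.

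The 12 genes higher in the combination were CCNB1, CDK1, NEK2, CDCA8, BUB1B, MAD2L1, CENPF, DLGAP5, TOP2A, HMGB2, LMNB1 and DEPDC1. CCNB1 was at 34.3, 54.2 and 31.8 CPM in the combination, above the 15 to 22.3 CPM of EGFhigh, a log2FC of 1.13 (standard error 0.26, edgeR adjusted p = 0.00786). MAD2L1 was at 15.4, 13.7 and 16.0 CPM against 4.81 to 8.27 CPM. CENPF was at 98.7, 203 and 133 CPM against 38.8 to 68.8 CPM, a log2FC of 1.55 (0.33, 0.004). None of these 3 genes overlapped between the groups. BUB1, which did not pass, was at 12.1, 15 and 14.3 CPM against 5.52 to 6.56 CPM. ECT2, at 31.6, 56.3 and 35.3 CPM, overlapped the EGFhigh range. Combination replicate 2 weighed on the count, which was 2 without it and 6 without EGFhigh replicate 3, and was 2 in a fit of these 6 libraries alone, whereas it was 20 in DESeq2 and 19 without the filter on low counts. Mitochondrial genes held 8.45 to 11.2% of counts in the combination and 11.7 to 12.9% after EGFhigh, and their part in the result was not tested. Against Fc, the combination changed 0 of 47 members and 0 of 15350 genes (0%) in edgeR, with 12 members and 601 genes at an unadjusted p under 0.05. Their median log2FC was -0.45, with 40 of 47 below 0, and TTK was lowest, at -0.98 (standard error 0.40).

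At 6 h some mitosis genes of Kyse30 were lower with either dose of EGF. EGFhigh lowered 11 members and raised 0, against 2.55% of all genes called, 1.21% lower and 1.34% higher. EGFlow lowered 3, namely CDC25C, CENPF and CKAP2, against 1.5% of all genes called, 0.684% lower and 0.814% higher. The median log2FC of the members was -0.67 with EGFhigh and -0.57 with EGFlow, with 46 and 45 of the 47 below 0. Leaving out any 1 of the 7 libraries gave 4 to 7 members for EGFhigh, with 4 without untreated replicate 3 or EGFhigh replicate 3. For EGFlow it was 0 or 1 without any untreated library or without EGFlow replicate 1, 3 or 4, and 4 without EGFlow replicate 2. In fits of these libraries alone 19 and 9 fell, and with untreated and Fc libraries pooled as controls 20 and 13. The share of all genes called in these other fits is not given.

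Of the 6 kinetochore genes, CENPE, CENPF and NDC80 fell at 6 h of EGFhigh. CENPF was at 274, 349 and 261 CPM untreated and at 113, 124, 124 and 98.4 CPM after EGFhigh, a log2FC of -1.36 (standard error 0.30, edgeR adjusted p = 0.00882). CDC25C had the largest change, from 56.6, 48.5 and 58.3 CPM to 18.7, 8.77, 15.2 and 16.2 CPM, a log2FC of -1.90 (0.31, 0.000867). BUB1 was at 46.9, 33.2 and 20.3 CPM and then at 8.83, 15.4, 9.74 and 15.2 CPM. For each of these 3 genes the groups did not overlap. The other genes that passed were NEK2, HMMR, NUSAP1, CKAP2, TOP2A and DEPDC1. Several leading genes did not pass at 6 h. CDK1 ranged from 56.5 to 115 CPM untreated and from 52.1 to 96.1 CPM after EGFhigh, and CDC20 from 112 to 149 and from 99.2 to 132 CPM, so both overlapped. The 9 epithelial markers summed to 3827 to 5031 CPM after EGFhigh, to 3558 to 5194 CPM after EGFlow and to 2763 to 2794 CPM in untreated cells at 6 h, and their part in the result was not tested.

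The early and late responses to EGFhigh were compared directly. No member passed the test of the difference between the log2FC at 72 h and that at 6 h (0 of 47, edgeR, against 1.01% of all genes). An unadjusted p under 0.05 was found for 10 members and for 2107 of 15350 genes. CDK1 came closest, with a difference of -1.28 (standard error 0.39, adjusted p = 0.096), whereas CDC25C had a difference of 1.08 (0.46, 0.276). Without EGFhigh replicate 1 at 72 h 2 members passed, and without replicate 4 of that group 1 passed.

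With EpEX alone at 6 h in Kyse30 0 members passed in edgeR, against 0.0261% of all genes called. An unadjusted p under 0.05 was found for 14 members and for 1451 of 15350 genes. The summed level was 3487 to 4491 CPM with EpEX and 4496 to 6085 CPM with Fc. The log2FC was below 0 for 45 of 47 members, with a median of -0.44. HMMR was lowest, at -1.38 (standard error 0.38, adjusted p = 0.142). The combination of EGFhigh and EpEX against Fc at 6 h lowered 12 members and raised 0, against 4.52% of all genes called, 1.51% lower and 3.01% higher. DEPDC1 had the lowest adjusted p, 0.00115 (edgeR), with a log2FC of -1.39 ± 0.26 (standard error). Here the 3 cytokinesis genes fell together, ANLN by 0.95, RACGAP1 by 1.08 and ECT2 by 1.10. ECT2 was at 89.4, 80.6 and 51.4 CPM with Fc and at 41.2, 30.6, 33.0 and 32.9 CPM with the combination. The count was 2 without Fc replicate 1, 4 without combination replicate 2, 5 in a fit of these 7 libraries alone and 21 with untreated and Fc libraries pooled as controls. The epithelial markers summed to 4018 to 4656 CPM with the combination, to 3804 to 4091 CPM with EpEX alone and to 2723 to 2838 CPM with Fc, and their part in the result was not tested. Fc against untreated cells changed 0 members and 0 genes (0%) at 6 h and at 72 h in edgeR, with 0 members at an unadjusted p under 0.05 at either time and 435 and 439 genes.

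In Kyse30, mitosis genes were also lower at later times in the absence of any factor. Between 0 h and 6 h of untreated culture, 0 of 47 members and 0 of 15350 genes (0%) passed in edgeR, with 13 members and 355 genes at an unadjusted p under 0.05, while 47 of 47 log2FC values were below 0, with a median of -0.53. Between 6 h and 72 h 8 members fell and 0 rose, against 1.55% of all genes called and 0.775% lower, with a median of -0.95. The 8 were CCNB1, PLK1, AURKA, CDCA8, CDC20, PTTG1, CENPE and CKAP2. PLK1 went from 105, 151 and 133 CPM at 6 h to 50.3, 49.0 and 46.6 CPM at 72 h, a log2FC of -1.42 (standard error 0.32, edgeR adjusted p = 0.0115). CDC20 went from 112, 145 and 149 CPM to 60.8, 67.1 and 47.2 CPM. AURKA went from 60.4, 116 and 64.1 CPM to 28.6, 35.6 and 33.9 CPM. For these 3 genes the time points did not overlap. The number was 2 without untreated replicate 3 at 6 h, 5 without replicate 1 at 6 h, 4 without any 1 of the 72 h libraries, and 21 in a fit of these 6 libraries alone, 17 in DESeq2 and 18 without the filter on low counts. The epithelial markers summed to 2763 to 2794 CPM at 6 h and to 4680 to 5717 CPM at 72 h, and with Fc to 2723 to 2838 and 4661 to 5709 CPM, and their part in the time comparisons was not tested.

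The Fc controls of Kyse30 gave 10 members lower at 72 h than at 6 h, against 2.25% of all genes called. The 10 were CCNB1, CCNB2, CDK1, PLK1, BIRC5, CDCA8, BUB1, PTTG1, NDC80 and DEPDC1. This number was 1 without Fc replicate 1 at 72 h or in a fit of these libraries alone, 2 and 3 without Fc replicate 3 and replicate 1 at 6 h, 5 without Fc replicate 2 or 3 at 72 h, and 18 without the filter on low counts. With EGFlow 17 members were lower at 72 h than at 6 h, against 14.8% of all genes called and 7.33% lower, and with EGFhigh 36 were lower and 0 higher, against 12.3% called, 6.25% lower and 6.08% higher. For EGFlow the number was 9 without replicate 3 at 72 h and 11 without replicate 2 at 6 h. CDC20, which did not pass at 6 h, went from 99.2, 107, 132 and 114 CPM to 32.6, 25.5 and 27.1 CPM in EGFhigh cells, a log2FC of -1.99 (standard error 0.24, edgeR adjusted p = 3.62e-07). UBE2C went from 123, 83.0, 106 and 68.1 CPM to 33.2, 23.5 and 24.2 CPM. The 11 members that did not pass between 6 h and 72 h of EGFhigh were CDC25B, CDC25C, INCENP, BUB1, BUB3, TTK, CENPA, HMMR, CKAP2, ECT2 and RACGAP1. HMMR, for instance, was at 21.4, 19.6, 30.2 and 25.0 CPM and then at 21.9, 6.59 and 9.98 CPM. INCENP was at 21.1, 31.1, 32.5 and 21.8 CPM at 6 h, TTK at 14.3, 16.5, 16.6 and 9.97 CPM, and RACGAP1 at 13.6, 12.8, 12.5 and 8.60 CPM. At 72 h TTK was at 9.79, 5.52 and 4.56 CPM and RACGAP1 at 4.66, 5.70 and 10.4 CPM. CDC25B was at 51.3, 50, 33.7 and 58.5 CPM at 6 h, CKAP2 at 29.2, 27.4, 17.5 and 20.4 CPM, and CENPA at 19.7, 5.61, 11.1 and 4.82 CPM. BUB3 was at 212, 163, 197 and 195 CPM and ECT2 at 46.2, 39.8, 49.3 and 30.7 CPM. Of the 11 genes, the libraries of BUB1 and TTK did not overlap between the times, and those of the other 9 did.

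In FaDu at 6 h each of the factors lowered a few mitosis genes. EGFlow lowered 7 members, against 3.45% of 16022 genes called and 0.899% lower, EGFhigh 6, against 3.06% and 0.774%, and EpEX against Fc 5, against 3.5% and 1.04%. None rose. The members' median log2FC was -0.40, -0.40 and -0.44. With 2 libraries per group the counts rested on single libraries: leaving out 1 library at a time gave 0 to 2 for EGFlow, 1 to 4 for EGFhigh and 1 to 5 for EpEX. With the 21 libraries of replicates 1 and 2 added, 0 members passed in any of the 3 comparisons, and fits of the compared groups alone gave 2 for EGFhigh and 2 for EpEX. With untreated and Fc libraries pooled as controls the counts were 13, 10 and 11, DESeq2 gave 13 for EGFlow, and dropping the filter gave 8 for EpEX. The shares of all genes above belong to the main fit, and those of these other fits are not given.

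TOP2A passed in each of the 3 FaDu comparisons at 6 h. It was at 552 and 729 CPM in untreated cells, at 372 and 353 CPM with EGFlow and at 389 and 384 CPM with EGFhigh. With Fc it was at 566 and 732 CPM and with EpEX at 414 and 376 CPM, a log2FC of -0.72 (standard error 0.18, edgeR adjusted p = 0.0286). CDC25B passed in the same 3 comparisons, for example at 90.0 and 99.0 CPM with Fc and 48.6 and 46.4 CPM with EpEX. AURKA passed with either dose of EGF, at 108 and 114 CPM untreated, 64 and 64.2 CPM with EGFlow and 67.4 and 57.2 CPM with EGFhigh. BUB1B had the largest fall with EGFhigh, from 57.6 and 49.7 CPM to 21.4 and 22.6 CPM, a log2FC of -1.29 (standard error 0.22, edgeR adjusted p = 0.00244). LMNB1 had the largest fall with EpEX, from 101 and 127 CPM to 48.5 and 38.9 CPM. None of these groups overlapped. With all FaDu libraries, however, the log2FC of AURKA turned positive, at 0.48 with EGFlow and 0.15 with EGFhigh, as did that of TOP2A with EpEX, at 0.0709.

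The remaining FaDu genes that passed at 6 h were CDC25C, HMMR, CKAP2 and LMNB1 with EGFlow, HMMR and NUSAP1 with EGFhigh, and CCNA2 and DLGAP5 with EpEX. CCNB1 and CDK1 did not pass in FaDu at 6 h. CCNB1 was at 151 and 188 CPM untreated and 140 and 165 CPM with EGFhigh, and CDK1 at 113 and 128 CPM and at 98.5 and 133 CPM, with overlap in both. The 9 epithelial markers summed to 5521 to 6423 CPM in FaDu with EGFlow, EGFhigh or EpEX and to 2065 to 2622 CPM with Fc or no treatment at 6 h. Mitochondrial genes held 7.998 to 9.517% of counts with EGF and 10.84 to 10.99% in untreated cells, and the part of these values in the results was not tested. Fc against untreated FaDu cells changed 0 members and 0 of 16022 genes (0%) in edgeR, with 0 members and 275 genes at an unadjusted p under 0.05. The difference between the lines in the response to EGFhigh at 6 h passed for 0 of 47 members in edgeR, against 0.0611% of 19634 genes. In this comparison 1 member and 965 genes had an unadjusted p under 0.05.

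At 72 h most FaDu arms held 1 library, so their values have no test. In the EGFhigh library 46 of 47 members were lower than in the untreated library, 40 of them at less than 0.5 times its level, with a median ratio of 0.330, and the exception was BUB3. The share of all genes that were lower in the same pair of libraries was not counted, so these numbers have no background. Mitochondrial genes held 8.32% of counts in the EGFhigh library and 13.2% in the untreated one, and the fibroblast, endothelial and blood markers summed to 7.37 and 14.2 CPM. The part of these values in the difference was not tested. CCNB1 was at 39.7 CPM after EGFhigh and at 149 CPM untreated, PLK1 at 34.7 and 196 CPM, TOP2A at 266 and 1437 CPM, and MKI67 at 121 and 423 CPM. CDC25B had the lowest ratio, 0.160, at 19.1 and 120 CPM. The highest ratios after BUB3 were those of RACGAP1 (0.731), CENPA (0.687) and ECT2 (0.682). The EpEX library at 72 h had the highest summed level of the FaDu libraries, 9259 CPM, against 7270 and 7726 CPM with Fc, and the EGFlow library had 5711 CPM.

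Fc-treated FaDu cells had a summed level of 5714 and 6801 CPM at 6 h and 7270 and 7726 CPM at 72 h, and no member fell. Of the 47 log2FC values 37 were above 0, with a median of 0.16. Untreated FaDu cells had 5812 and 6710 CPM at 6 h and 7745 CPM in the 1 library at 72 h. TACC3, which stabilizes spindle microtubules, rose from 296 and 444 CPM to 619 and 1010 CPM, a log2FC of 1.14 (standard error 0.23, edgeR adjusted p = 0.00779), against 2.88% of all genes called. The difference in time course between the lines was not tested. The combination of EGFhigh and EpEX against Fc at 72 h lowered TACC3 and no other member, against 0.818% of all genes called, with 321 and 383 CPM in the combination and a log2FC of -1.21 (0.23, 0.0151). Neither TACC3 call passed without Fc replicate 4 at 72 h, the library at 1010 CPM, or with all FaDu libraries. The first was also lost without Fc replicate 3 at 6 h and the second without either library of the combination. In the combination 44 of 47 log2FC values were below 0, with a median of -0.32. The epithelial markers summed to 1997 to 2459 CPM in the combination and 2495 to 2862 CPM with Fc at 72 h, and the fibroblast, endothelial and blood markers to 8.88 to 12.9 and 15.9 to 19.8 CPM. Mitochondrial genes held 8.51 to 10.6% of counts with Fc at 6 h and 12.8 to 12.9% at 72 h, and the part of these values in the TACC3 results was not tested.

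The lines differed at baseline about as often in mitosis genes as in genes at large. At 6 h without treatment 13 of 47 members (27.7%) differed between Kyse30 and FaDu, against 22.4% of 19634 genes. Lower in Kyse30 were CCNB1, BUB1B, MAD2L1, NUSAP1, GTSE1, CKAP2, TACC3, ECT2 and RACGAP1, and higher were CDC25C, CDCA8, NDC80 and TOP2A. GTSE1 differed most, with a log2FC of -2.54 (standard error 0.41, edgeR adjusted p = 2.26e-06) in a fit of both lines together. Its CPM, scaled within each line, were 30.4, 32.5 and 10.4 in Kyse30 and 127 and 151 in FaDu. Without either of the FaDu libraries 7 differed, and with all FaDu libraries 3.

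The members varied together over libraries. Over the 43 Kyse30 libraries, Pearson's r of the log2 level of a member with the mean of the other 46 had a median of 0.872, from 0.583 for INCENP to 0.953 for TPX2. After the group means were taken out, the median was 0.520. Over the 20 FaDu libraries the median was 0.863, from 0.480 for BUB3 to 0.976 for CCNA2. The libraries share treatments, times and depth, so these values are descriptions. In untreated Kyse30 cells at 0 h, TOP2A had the highest level of the members, 1677 ± 395 CPM (SD, n = 3). It was followed by CKS1B (475 ± 112), CENPF (447 ± 92.9) and TPX2 (424 ± 77.5), which did not differ beyond their spread. CENPA was lowest, at 14.0 ± 4.06 CPM.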

How the data were processed

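Poly(A) RNA of Kyse30 and FaDu cells was measured by 3′ RNA-seq. The authors deposited 1 file of raw read counts per gene and library; the submitters' processing notes name STAR, HTSeq and GRCh38 (hg38), while versions, annotation, strand setting and any use of molecular identifiers are not given in the sources used here. Rows of reads not assigned to a gene were left out of library totals. Groups came from the sample labels, and no column of other samples was present.

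The members and gene lists were chosen with earlier results of these data known. Counts were normalised by TMM and tested by edgeR (version 4.0.16, R 4.3.3) with a quasi-likelihood fit over all groups of a line, after a filter on low counts (filterByExpr, minimum count 10, minimum total 15). P-values were adjusted by Benjamini-Hochberg over all genes tested, and a gene was called at an adjusted p of at most 0.05 and a log2FC beyond 0.5, the threshold of the study. Members were named by role: per-library values were given for leading genes of each role and for members not called where at least 30 of the 47 were, and others by counts and examples. CPM were scaled within each line, so levels of the lines were compared only in a joint fit. Correlations of members used log2 CPM after a small constant was added, and rank correlations of libraries used CPM without TMM. Only the comparison of replicate numbers used log2 CPM with a prior count of 2. DESeq2 (version 1.42.0), RLE size factors, no filter, a replicate block, other sample sets and leaving out single libraries were the alternatives. Shares of all genes called are given for the main fit only. Counts of members from the alternatives therefore do not show whether a fit called more genes in general. The tests were checked on simulated counts. For Kyse30 EGFhigh at 72 h, edgeR called 19% of genes changed by a log2FC of 1 in size and 55% of those changed by 2. For FaDu EGFhigh at 6 h it called 21% and 60%. False calls were 2 in Kyse30 and 3 in FaDu. A gene that was not called may thus have changed.

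In Kyse30, 3 counts corresponded to 0.255 to 1.54 CPM and in FaDu to 0.241 to 0.482 CPM, which bounds counting error only. The labels do not say that replicates were separate cultures, so p-values measure the spread between these libraries, which may be technical. Promoter sequences were taken from RefSeq (GRCh38.p14).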

Additional observations from a re-analysis of the deposited data

Results flagged for a closer look

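Within groups of 4 libraries, 5 of the 64 gene and group combinations examined held 1 library far from the other 3, where chance would give about 1 in 20. Only Kyse30 had groups of 4 libraries, so no FaDu group was examined. PLK1 stood at 50.9 CPM in EGFlow replicate 2 at 72 h, against 25.4 to 28.3 CPM in the others. CDC20 stood at 166 CPM in replicate 3 of the combination at 6 h, against 102 to 111 CPM, and at 152 CPM in EGFlow replicate 3 at 6 h, against 103 to 109 CPM. TPX2 was low in EGFlow replicate 4 at 6 h, at 146 CPM against 200.1 to 211 CPM. MKI67 was low in EGFhigh replicate 4 at 6 h, at 116 CPM against 152 to 154 CPM.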

How the results depend on the processing

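RLE size factors and dropping the limit on log2FC moved none of the 26 counts of members called by more than 1.5 times. With DESeq2 the counts were 6 for Kyse30 EGFlow at 6 h (3 in edgeR), 1 for EpEX at 6 h (0), 20 for the combination against EGFhigh at 72 h (12), 17 for untreated cells at 72 h against 6 h (8), 13 for FaDu EGFlow at 6 h (7), 2 for Fc in FaDu at 72 h against 6 h (1) and 2 for the FaDu combination at 72 h (1). With no filter they were 8 for EGFlow, 17 for EGFhigh (11) and 1 for EpEX in Kyse30 at 6 h, 19 for the combination against EGFhigh, 18 for untreated and 18 for Fc-treated cells at 72 h against 6 h (10 for Fc), 1 for the change of the EGFhigh response with time (0) and 8 for FaDu EpEX at 6 h (5).

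In fits of the compared groups alone the counts in Kyse30 were 9, 19 and 5 for EGFlow, EGFhigh and the combination at 6 h (12 for the combination), 12 for EGFhigh at 72 h (32), 2 for the combination against EGFhigh, 2 for EGFhigh against EGFlow (14), and 21 for untreated and 1 for Fc-treated cells at 72 h against 6 h; in FaDu they were 2 for EGFhigh at 6 h (6), 2 for EpEX and 2 for the combination at 72 h. With untreated and Fc libraries pooled as controls they were 13, 20 and 21 for EGFlow, EGFhigh and the combination in Kyse30 at 6 h, and in FaDu 13, 10 and 11 for EGFlow, EGFhigh and EpEX at 6 h and 2 for the combination at 72 h. With all FaDu libraries the counts were 0 in the 5 FaDu comparisons that had any, and 3 for the lines at baseline (13).

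The main fit took no account of replicate numbers, and the labels do not say whether they mark paired samples. Libraries with the same number did resemble each other slightly. Over 217 such Kyse30 pairs the correlation of deviations from the group means averaged 0.0633, from -0.131 to 0.289, against -0.0216 for different numbers. Over 42 FaDu pairs it averaged 0.0713, from -0.0362 to 0.241, against -0.0713, which mirrors it by construction. In Kyse30 38 of 43 and in FaDu 14 of 14 libraries correlated best with their own number. With the replicate block the counts were 9, 20, 1 and 19 for EGFlow, EGFhigh, EpEX and the combination in Kyse30 at 6 h, 23 for untreated and 19 for Fc-treated cells at 72 h against 6 h, 12 for FaDu EGFlow at 6 h and 2 for the FaDu combination at 72 h; EGFhigh at 72 h gave 28.

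Leaving out 1 library at a time gave, in Kyse30, 0 to 4, 4 to 7 and 2 to 12 for EGFlow, EGFhigh and the combination at 6 h, 17 to 31 for EGFhigh at 72 h, 2 to 17 for the combination against EGFhigh, 5 to 20 for EGFhigh against EGFlow, and, at 72 h against 6 h, 2 to 8 untreated, 1 to 8 with Fc, 27 to 38 with EGFhigh and 9 to 21 with EGFlow, with 0 to 2 for the change of the EGFhigh response. In FaDu it gave 0 to 2, 1 to 4 and 1 to 5 for EGFlow, EGFhigh and EpEX at 6 h, 0 to 1 for Fc over time and 0 to 1 for the combination at 72 h, and 7 to 13 for the lines at baseline; a lone library was then assumed to vary like the other groups.

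The log2FC of INCENP with EGFhigh at 72 h was 0.0934 with the replicate block, ranged from -0.61 to 0.22 when 1 library was left out, and was 0.03, 0.08 and 0.22 without EGFhigh replicate 3, EGFhigh replicate 4 and untreated replicate 2. With all FaDu libraries AURKA had 0.48 with EGFlow and 0.15 with EGFhigh, and TOP2A 0.0709 with EpEX. The cause of these changes was not tested.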
